A study of Arabidopsis thaliana with 4 samples.

Results

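The WRKY transcription factor family of Arabidopsis thaliana was taken as 58 listed gene identifiers and read out of a table of read counts for 32833 genes; all 58 had a row, and 49 passed the filter on low counts. RNA came from whole 7-day-old seedlings of ecotype Col0, sequenced as stranded mRNA libraries, and the design has 1 comparison, cml39 mutant seedlings (genotype given as cml39 -/-) against wild type (wt), with 2 libraries a group and 4 in all, named here wt 1, wt 2, cml39 1 and cml39 2. CML39 encodes a calmodulin-like calcium sensor, which the series title places in seed development, germination and fruit development. All seedlings shared the same light, temperature and humidity regime; the labels name neither the allele nor the lesion, and whole seedlings mix root and shoot. Libraries held 24101882 (wt 1), 19331639 (wt 2), 21981123 (cml39 1) and 19821451 (cml39 2) counts.

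WRKY factors are plant regulators named for the opening letters of a conserved heptapeptide, which together with a zinc finger binds W-box DNA, written TTGACC or TTGACT. They are best known for turning defence genes on and off downstream of immune receptors, calcium and MAP kinases, and single members also act in senescence, phosphate supply, trichomes, pollen and seed. Many WRKY genes carry W-boxes in their own promoters, so that members are regulated by the family itself. Group I members have a pair of WRKY domains, groups II and III have a single domain, and group II is divided into IIa to IIe by sequence.

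A pair of facts about the libraries come before the results. The targeted gene went against its labels: CML39 (AT1G76640) had 0 counts in wt 1 and 0 in wt 2, but 45 in cml39 1 and 21 in cml39 2 (adjusted p = 0.00218), so the mutant libraries are called "labelled cml39" and every direction below is that of the label. Library cml39 2 stood apart: the summed level of 5 seed maturation genes was 1.20 CPM (counts scaled to library size) in wt 1, 1.67 in wt 2, 21.2 in cml39 1 and 122 in cml39 2. Nothing in the labels says that the 2 libraries of a group came from separately grown seedlings, so p-values measure the spread between these libraries, which may be technical. A single value compared as 2 against 2 cannot go below p = 0.333 in a two-sided exact permutation test, and calls therefore come from edgeR's quasi-likelihood test fitted across all 19834 genes that passed the filter, with Benjamini-Hochberg adjusted p under 0.05.

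The coding sequence of every member held the heptapeptide. It was found once in 47 members and in 2 copies in 11, all of group I, and the remaining group I member, WRKY10, held 1 copy. The codons are shown for the 3 members of IIa, which were all called higher, for WRKY33 as a member with 2 copies, and for those that depart from the standard form; capitals mark the sixth codon, 5′ to 3′ on the coding strand, from the RefSeq annotation of TAIR10.1.
WRKY18: tggaggaaatacggaCAAaag
WRKY40: tggaggaaatatggaCAGaaa
WRKY60: tggaggaaatacgggCAAaag
WRKY33, copy 1: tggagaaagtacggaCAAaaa
WRKY33, copy 2: tggagaaaatacggcCAGaaa
WRKY50: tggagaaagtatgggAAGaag
WRKY51: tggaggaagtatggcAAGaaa
The sixth codon was CAA or CAG, both for glutamine, in 56 members. In WRKY50 and WRKY51, a pair of IIc members that act in salicylic acid repression of jasmonate responses, it was AAG, for lysine. Their values are given with group IIc.

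Windows of 300 bases before the annotated gene start were searched for the W-box on both strands. A W-box lay in 24 of 58 windows of the family (41.4%), against 32.3% of 27443 protein-coding genes, and 10 members (17.2%) held 2 or more, against 7.91%. WRKY33, with 3 boxes, and WRKY53, with 2, are shown as called members with several boxes. WRKY32, called lower, and WRKY45, called higher, also held 2 boxes each and are not shown. WRKY15 and WRKY17 are shown as close relatives in group IId that were called in opposite directions with 2 boxes each. WRKY18 is shown because it had the largest rise of the family and neither a W-box nor the shorter core TTGAC in its window. Capitals mark the W-boxes, of which AGTCAA and GGTCAA are those on the other strand, and each sequence reads 5′ to 3′ toward the gene on its own strand (RefSeq, TAIR10.1).
WRKY33, chr2:16107935-16108234, plus strand: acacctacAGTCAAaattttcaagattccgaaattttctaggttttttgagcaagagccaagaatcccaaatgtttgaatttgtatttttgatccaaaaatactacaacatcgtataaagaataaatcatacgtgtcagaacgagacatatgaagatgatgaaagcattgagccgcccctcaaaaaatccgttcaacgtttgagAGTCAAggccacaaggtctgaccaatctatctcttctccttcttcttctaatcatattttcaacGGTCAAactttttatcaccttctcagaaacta
WRKY53, chr4:12393983-12394282, minus strand: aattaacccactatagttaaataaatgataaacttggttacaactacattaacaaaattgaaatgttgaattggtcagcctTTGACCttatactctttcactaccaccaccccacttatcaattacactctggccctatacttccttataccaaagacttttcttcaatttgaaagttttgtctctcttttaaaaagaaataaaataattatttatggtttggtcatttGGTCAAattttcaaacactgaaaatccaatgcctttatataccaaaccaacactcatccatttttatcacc
WRKY15, chr2:9924586-9924885, plus strand: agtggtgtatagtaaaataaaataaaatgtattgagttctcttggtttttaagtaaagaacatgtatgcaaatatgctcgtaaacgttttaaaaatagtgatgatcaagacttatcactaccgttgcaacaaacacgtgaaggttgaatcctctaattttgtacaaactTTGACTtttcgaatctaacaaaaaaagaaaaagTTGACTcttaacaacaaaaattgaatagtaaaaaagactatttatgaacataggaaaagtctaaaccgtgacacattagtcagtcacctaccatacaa
WRKY17, chr2:10439470-10439769, minus strand: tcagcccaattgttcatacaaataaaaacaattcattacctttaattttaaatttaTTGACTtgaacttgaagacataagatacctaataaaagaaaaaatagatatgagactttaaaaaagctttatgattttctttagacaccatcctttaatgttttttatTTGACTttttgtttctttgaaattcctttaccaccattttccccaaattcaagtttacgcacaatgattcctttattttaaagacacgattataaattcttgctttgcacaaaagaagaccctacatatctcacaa
WRKY18, chr4:15382477-15382776, plus strand: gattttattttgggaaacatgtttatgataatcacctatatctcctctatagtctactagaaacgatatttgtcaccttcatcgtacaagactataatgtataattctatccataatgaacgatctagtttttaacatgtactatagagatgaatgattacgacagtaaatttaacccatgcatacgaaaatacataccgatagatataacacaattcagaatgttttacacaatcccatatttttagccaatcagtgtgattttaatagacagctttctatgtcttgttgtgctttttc
Counted from the first base of each box, the boxes lay 32, 96 and 292 bases before the start of WRKY33. They lay 71 and 219 bases before WRKY53, 98 and 131 before WRKY15, and 136 and 244 before WRKY17.

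In libraries labelled cml39, 18 of the 49 tested members were higher (36.7%) and 12 were lower (24.5%), 30 in all, and 19 did not pass. Over all genes tested, 40.9% were called, 19.3% higher and 21.6% lower, so the share of members called higher was above the background and the share called lower was near it. Rises of at least 2-fold were called in 13 members, against 6.57% of all genes, and falls of at least 2-fold in 5, against 14.1%. The median log2 fold change was 0.25 over the 49 members and -0.0052 over all genes tested. CPM of the groups did not overlap for 40 members (81.6%), against 74.0% of all genes. These included all 30 called members, so separate groups named below for a called member are no further support for its call. Without cml39 2, 15 members were higher and 10 lower; without wt 1, 11 were higher and 4 lower, and without wt 2, 14 and 6. Upper quartile scaling shifted the median of all genes to -0.15 and of members to 0.10, with 15 members higher and 13 lower; over all genes it turned 3822 higher and 4285 lower into 2704 and 5403.

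**Figure D1:**
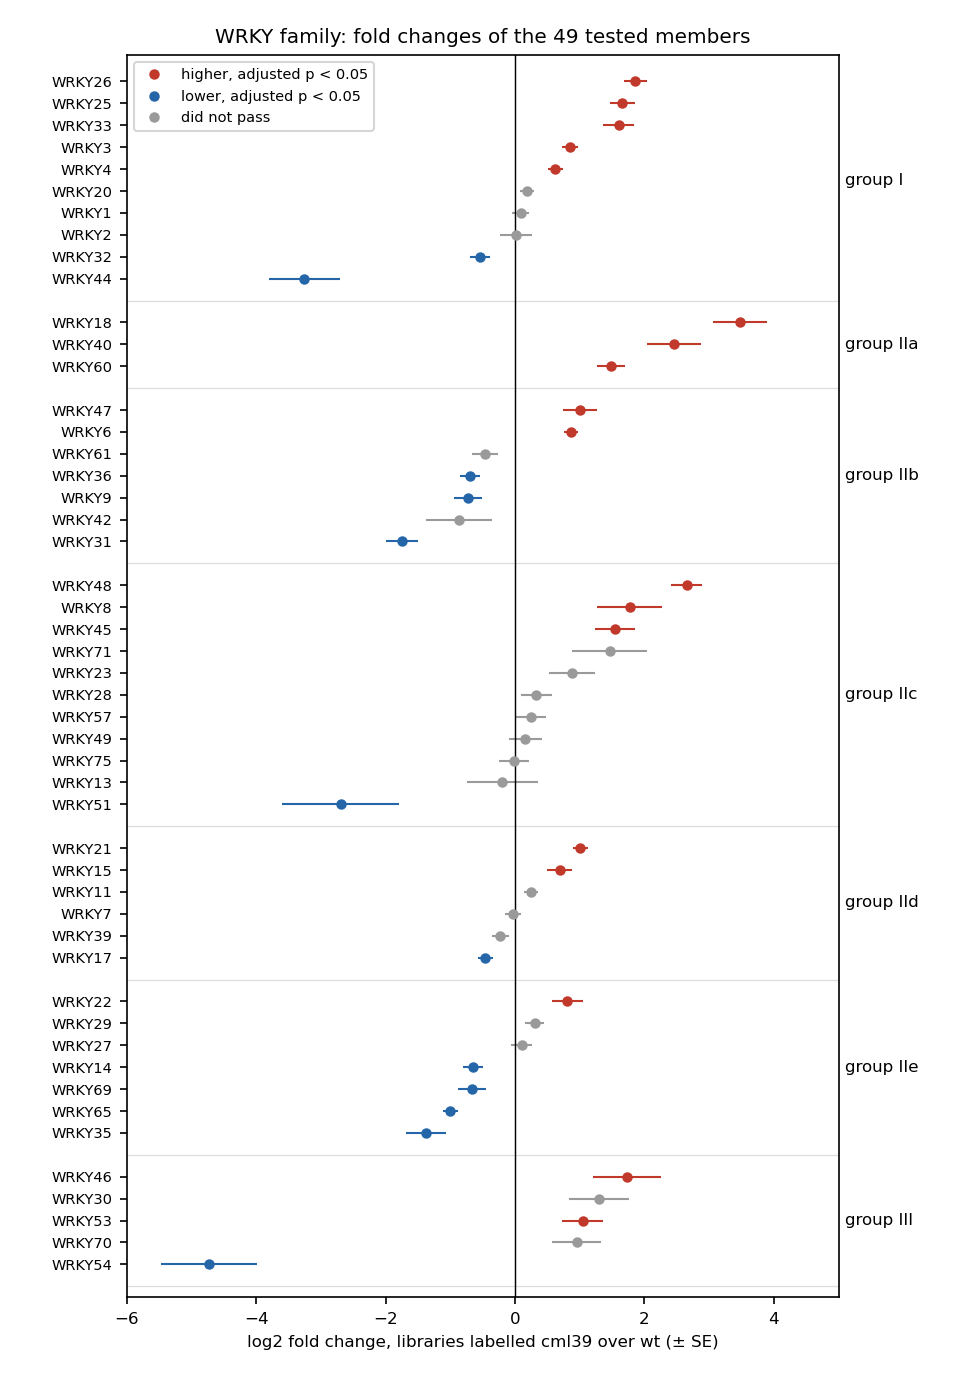
Log2 fold change (x axis, libraries labelled cml39 over wt, bars ± SE) of the 49 tested WRKY members, grouped by subgroup on the y axis and coloured by call at an adjusted p of 0.05. All 3 IIa members lie to the right, 4 of 7 IIe members were called lower, and WRKY54 at -4.73 has the largest fall.

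Reads on the family as a whole were more frequent in libraries labelled cml39. The 58 members summed to 799 CPM in wt 1 and 892 in wt 2, and to 1402 in cml39 1 and 1376 in cml39 2, a ratio of means of 1.64 (846 ± 65.9 against 1389 ± 18.4, SD, n = 2). Both libraries labelled cml39 lay above both of wild type. Of that rise, 66.1% came from 6 members, the 3 of IIa with WRKY25, WRKY26 and WRKY33; the 52 others summed to 691, 746, 920 and 886 CPM in the same order. By subgroup, the ratio of means was highest for IIa, at 6.94, with 16.6 and 26.9 CPM in wt and 171 and 130 in cml39. In CPM the difference was greater for group I, which went from 258 and 297 to 539 and 580, a ratio of 2.02. In group IIe the sums overlapped, at 130 and 131 CPM in wt and 106 and 130 in cml39. These sums count reads and are not corrected for transcript length.

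**Figure D2:**
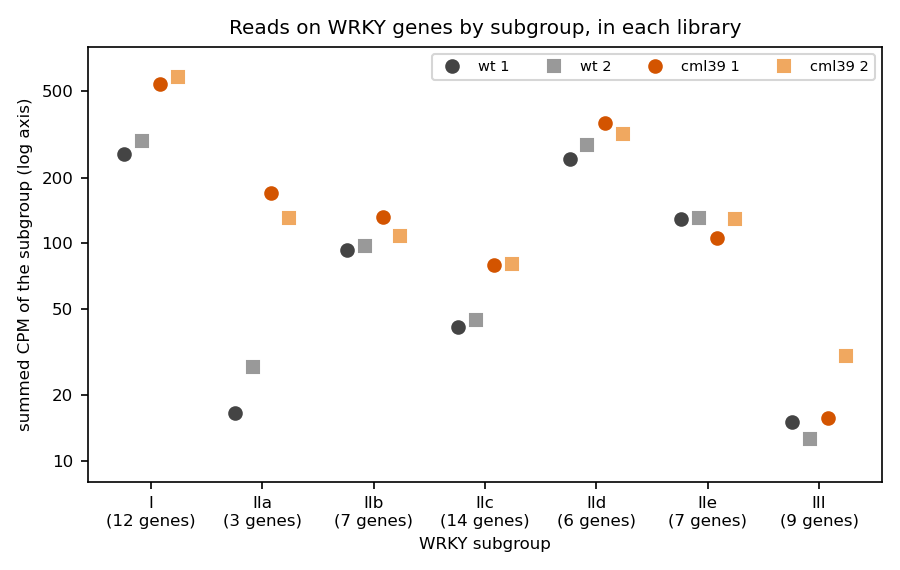
Summed CPM of each WRKY subgroup (y axis, log scale) in each of the 4 libraries, 1 point a library, with all members of the subgroup included. IIa sits between 16.6 and 26.9 CPM in wt and between 130 and 171 CPM in libraries labelled cml39, and the IIe libraries overlap.

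Group IIa comprises WRKY18, WRKY40 and WRKY60, which form complexes with one another, restrain basal defence and act in abscisic acid signalling. WRKY18 (AT4G31800, chr4:15382777-15385100) had 5.78 and 11.4 CPM in wt 1 and wt 2 and 129 and 59.97 CPM in cml39 1 and cml39 2. The groups were far apart, although cml39 1 was 2.15 times as high as cml39 2. Its log2 fold change was 3.48 ± 0.42 (SE; adjusted p = 0.000692), and 2.83 without cml39 1. WRKY40 (AT1G80840, chr1:30383561-30385499) had 5.59 and 9.23 CPM in wt and 23.5 and 57.2 CPM in cml39, here with cml39 2 the higher. Its log2 fold change was 2.45 ± 0.42 (adjusted p = 0.00307), and 1.68 without cml39 2. WRKY60 (AT2G25000, chr2:10629662-10631413), which WRKY18 and WRKY40 are known to induce, had 5.21 and 6.31 CPM in wt and 18.8 and 13.4 in cml39, a log2 fold change of 1.48 ± 0.22 (adjusted p = 0.0017). All 3 members were called higher (100%, against 19.3% of all genes tested) and kept that call under each of the 13 alternative analyses. None of the 3 had a W-box in its upstream window, while WRKY40 held 2 copies of the core TTGAC.

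Among group I members, WRKY33 is the central regulator of resistance to necrotrophic fungi and a substrate of the kinases MPK3 and MPK6. WRKY33 (AT2G38470, chr2:16108235-16110766) had 47.9 and 57.8 CPM in wt and 119 and 202 CPM in cml39, with a log2 fold change of 1.60 ± 0.24 (adjusted p = 0.00162). No library of one group reached the other. Its relatives WRKY25 and WRKY26, which also act in heat tolerance, rose by similar amounts. WRKY25 had 25.3 and 34.9 CPM in wt and 108 and 81.7 in cml39 (log2 fold change 1.66 ± 0.19, adjusted p = 0.000549), and WRKY26 had 18 and 26.2 against 84.2 and 75.4 (1.86 ± 0.18, adjusted p = 0.000283). The closely related pair WRKY3 and WRKY4, also tied to necrotroph resistance, rose less. WRKY3 went from 40.7 and 48.3 CPM to 80.7 and 79.4 (0.85 ± 0.12, adjusted p = 0.00128) and WRKY4 from 30.3 and 33.6 to 50.6 and 47.8 (0.62 ± 0.11, adjusted p = 0.00421). WRKY4 did not pass without wt 1 (log2 fold change 0.55).

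The remaining group I members included both falls and flat values. WRKY44 (AT2G37260, chr2:15644811-15647076), known as TTG2 and needed for trichomes and the seed coat, had 84 and 61 counts in wt and 10 and 2 in cml39, or 3.15, 2.92, 0.503 and 0.109 CPM. It was far lower in both libraries labelled cml39, with a log2 fold change of -3.26 ± 0.55 (adjusted p = 0.00292), and of -2.58 without cml39 2. Without cml39 1 the ratio of wt to cml39 rests on 2 counts and was 27.9, with an exact binomial 95% interval of 7.57 to 232 for counting error only. WRKY32 had 14.6 and 16.5 CPM in wt and 10.3 and 11.1 in cml39 (-0.54 ± 0.16, adjusted p = 0.0286). It did not pass without wt 1 (-0.62), wt 2 (-0.46) or cml39 1 (-0.48), nor with DESeq2. WRKY1, WRKY2 and WRKY20 had log2 fold changes of 0.088, 0.0094 and 0.18 and did not pass. WRKY10, which acts in the endosperm, and WRKY34, which acts in pollen, had 0 counts in all 4 libraries; 3 counts in 1 library would be 0.113 to 0.164 CPM.

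In group IIb, 2 of 7 members were higher (28.6%) and 3 lower (42.9%), against 19.3% and 21.6% of all genes tested. WRKY6, a senescence-associated factor that represses the phosphate exporter gene PHO1, had 29.3 and 30.9 CPM in wt and 56.6 and 53.2 in cml39, a log2 fold change of 0.87 ± 0.11 (adjusted p = 0.000826). WRKY47 had 17.8 and 22.0 CPM in wt and 51.1 and 28.5 in cml39 (1.0 ± 0.26, adjusted p = 0.0175), and did not pass without wt 1 (0.86). The other called members of the group were lower. WRKY31 fell from 10.9 and 10.7 CPM to 2.57 and 3.88 (-1.75 ± 0.24, adjusted p = 0.00123). WRKY36 had 17.7 and 15.9 CPM in wt and 9.86 and 10.9 in cml39 (-0.69 ± 0.16, adjusted p = 0.0099), and WRKY9, a factor of root suberin, had 8.10 and 7.75 against 5.33 and 4.21 (-0.73 ± 0.21, adjusted p = 0.0284). WRKY36 did not pass without wt 1 (-0.61), and WRKY9 did not pass without wt 1 (-0.69), wt 2 (-0.77) or cml39 2 (-0.57), nor with DESeq2. WRKY42, which also acts on PHO1 and phosphate uptake, overlapped between groups at 1.91 and 1.10 CPM in wt and 1.11 and 0.547 in cml39 and did not pass (-0.86, adjusted p = 0.216). WRKY61 had -0.46 (adjusted p = 0.0966) and passed only under upper quartile scaling among the 13 alternatives.

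The IIc group held the second largest rise and a fall of scarce transcripts. WRKY48, a repressor of basal defence, had 2.66 and 4.07 CPM in wt and 23.5 and 18.4 in cml39, a log2 fold change of 2.65 ± 0.24 (adjusted p = 0.000231). WRKY45, which acts in phosphate uptake, had 4.65 and 9.80 CPM in wt and 21.3 and 20.4 in cml39 (1.54 ± 0.30, adjusted p = 0.00579), and 2.15 without wt 2. In both genes the groups were clearly separate. WRKY8, a factor of salt and virus responses, was scarce at 0.600 and 0.717 CPM in wt and 1.41 and 3.12 in cml39 (1.77 ± 0.51, adjusted p = 0.0259). It did not pass without wt 1 (1.65), wt 2 (1.89) or cml39 2 (1.10). WRKY51 had 27 and 38 counts in wt and 0 and 8 in cml39 (-2.69 ± 0.90, adjusted p = 0.0469). That call did not hold without wt 1 (-3.06), wt 2 (-2.23) or cml39 1 (-1.66); without cml39 2, wild type was at least 9.05-fold higher, taken against 3 counts. WRKY75, a phosphate starvation regulator, overlapped between groups, with 7.58 and 5.60 CPM in wt, 6.04 and 7.06 in cml39 and a log2 fold change of -0.015 (adjusted p = 0.967).

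The other tested IIc members, WRKY13, WRKY23, WRKY28, WRKY49, WRKY57 and WRKY71, did not pass. WRKY71, linked to shoot branching, had 0.413 and 0.191 CPM in wt and 0.805 and 0.930 in cml39 (1.46, adjusted p = 0.0794). WRKY23, an auxin-responsive gene of root development, had 1.69 and 1.15 CPM in wt and 2.87 and 2.41 in cml39 (0.88, adjusted p = 0.0815). WRKY12, WRKY43 and WRKY50 were not tested: WRKY12, a stem and flowering-time factor, had 6 and 4 counts in wt and 0 in both libraries labelled cml39, and WRKY50 had 2, 1, 0 and 0.

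Group IId factors bind calmodulin and include WRKY7, WRKY11 and WRKY17, which restrain basal defence. Of its 6 members, 2 were higher (33.3%), 1 was lower (16.7%) and 3 did not pass. Over all genes tested, 19.3% were higher and 21.6% lower. WRKY21 had 34.6 and 41.6 CPM in wt and 75.3 and 78.2 in cml39, a log2 fold change of 1.01 ± 0.12 (adjusted p = 0.000702). WRKY15, linked to reactive oxygen and salt responses, had 56.0 and 73.2 CPM in wt and 123.5 and 84.7 in cml39 (0.69 ± 0.20, adjusted p = 0.0262), and did not pass without wt 1 (0.51), without cml39 1 (0.39) or under upper quartile scaling. WRKY17 was lower, at 31.9 and 32.4 CPM in wt and 23.2 and 23.5 in cml39 (-0.46 ± 0.11, adjusted p = 0.0147), with both pairs within 1 CPM; it did not pass without wt 1 (-0.47) or wt 2 (-0.46). WRKY11, the nearest relative of WRKY17, had 53.7 and 59.0 CPM in wt and 67.2 and 66.9 in cml39 (0.25 ± 0.11, adjusted p = 0.0928). WRKY7 had 35.3 and 42.5 against 37.8 and 38.6 (-0.026 ± 0.13, adjusted p = 0.888), and WRKY39, a heat-response factor, had 32.8 and 34.6 against 31.3 and 26.3 (-0.22 ± 0.13, adjusted p = 0.203). The difference between WRKY11 and WRKY17 was not tested.

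Of the 7 IIe members, 4 were lower (57.1%) and 1 higher (14.3%), against 21.6% and 19.3% of all genes tested. WRKY65 was among the most abundant members in wt, with 45.6 and 48.0 CPM, and had 22.8 and 24.0 in cml39, a log2 fold change of -1.0 ± 0.11 (adjusted p = 0.000512). WRKY35 had 5.33 and 3.78 CPM in wt and 1.76 and 1.75 in cml39 (-1.38 ± 0.30, adjusted p = 0.00935). WRKY14 had 16.7 and 17.2 against 9.91 and 11.8 (-0.64 ± 0.16, adjusted p = 0.0142). Of these genes, WRKY35 did not pass without wt 1 (-1.10), nor WRKY14 without wt 1 (-0.66) or wt 2 (-0.63). WRKY69 had 11.14 and 10.14 CPM in wt and 7.85 and 5.58 in cml39 (-0.66 ± 0.21, adjusted p = 0.041), a call that did not hold without wt 1 (-0.59), wt 2 (-0.74) or cml39 2 (-0.44), or with DESeq2. WRKY22, which acts below the MAP kinases of flagellin signalling, was higher, with 24.9 and 27.3 CPM in wt and 32.7 and 59.0 in cml39 (0.81 ± 0.25, adjusted p = 0.0326). It did not pass without wt 1 (0.75), wt 2 (0.87) or cml39 2 (0.33), nor under upper quartile scaling or with the robust fit. WRKY29, its partner in that pathway, had 0.30 (adjusted p = 0.137), and WRKY27 had 0.10 (adjusted p = 0.641).

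**Figure D3:**
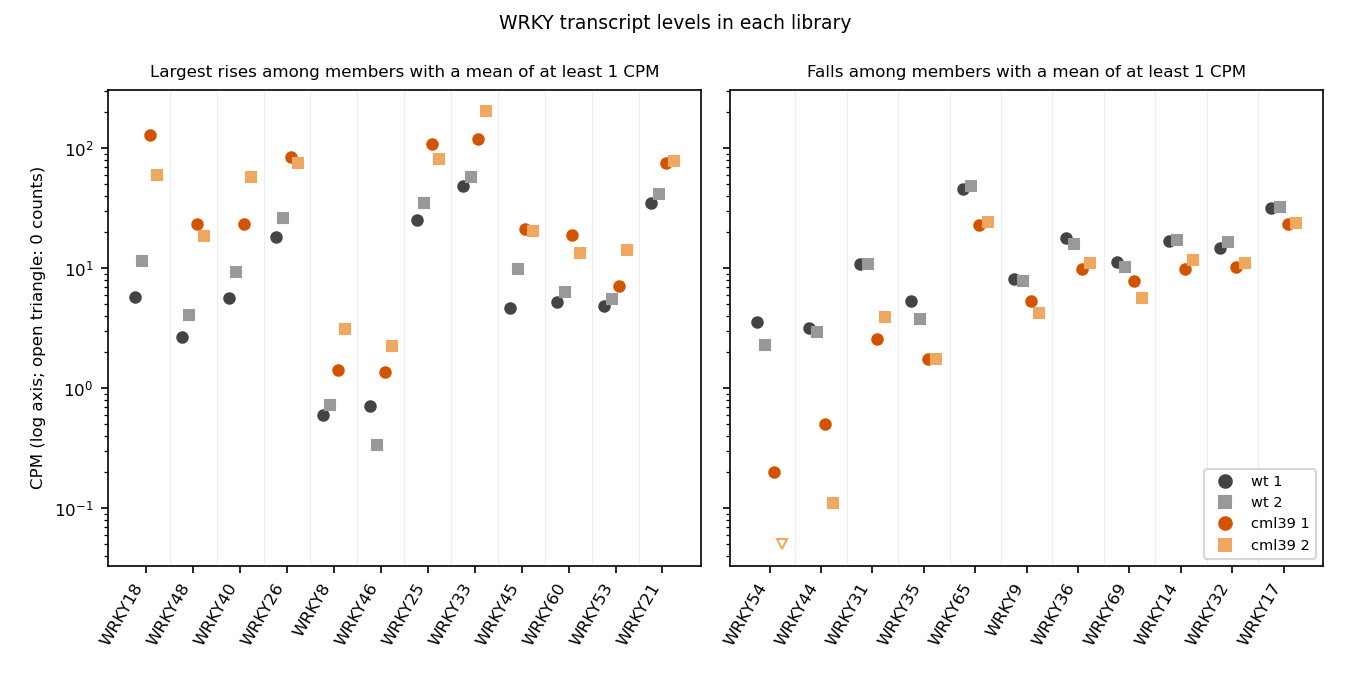
CPM (y axis, log scale) in each library for the 12 members with the largest rises (left) and the 11 called falls (right) among members with a mean of at least 1 CPM; an open triangle marks 0 counts. WRKY18 goes from 5.78 and 11.4 CPM to 129 and 59.97, and WRKY54 from 3.53 and 2.30 CPM to 0.201 and 0.

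In group III, 2 of the 5 tested members were higher (40%), 1 was lower (20%) and 2 did not pass, against 19.3% higher and 21.6% lower over all genes. WRKY54 (AT2G40750, chr2:17000419-17002528) and WRKY70 act together in salicylic acid signalling and hold back leaf senescence. WRKY54 had 94 and 48 counts in wt and 4 and 0 in cml39, or 3.53, 2.30, 0.201 and 0 CPM. Both libraries labelled cml39 were close to the floor, and the log2 fold change was -4.73 ± 0.74 (adjusted p = 0.00213), the largest fall of the tested members; it was -3.83 without cml39 2, and without cml39 1 wild type was at least 18.2-fold higher, taken against 3 counts. WRKY70 had 5.29 and 3.78 CPM in wt and 5.38 and 12.3 in cml39, and its log2 fold change of 0.95 ± 0.38 (adjusted p = 0.0828) rested on cml39 2. It passed without cml39 1 (1.43), with every gene with a count and with a crossed replicate pairing, and was 0.24 without cml39 2. WRKY53, a positive regulator of leaf senescence, had 4.80 and 5.50 CPM in wt and 7.09 and 14.2 in cml39 (1.04 ± 0.32, adjusted p = 0.0344). That call was lost without wt 1 (0.95), wt 2 (1.13) or cml39 2 (0.46), under upper quartile scaling and with limma-voom. WRKY46, a partner of WRKY53 and WRKY70, had 0.713 and 0.335 CPM in wt and 1.36 and 2.24 in cml39 (1.73 ± 0.52, adjusted p = 0.0321), and did not pass without wt 1 (2.40), wt 2 (1.32) or cml39 2 (1.33), nor with DESeq2. WRKY30 had 1.30 (adjusted p = 0.0566) and passed without cml39 2 (1.47). WRKY38, WRKY41, WRKY55 and WRKY62 had at most 10 counts each over the 4 libraries and were not tested.

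Levels between genes were compared as CPM per kilobase of annotated exon. In wt the most abundant members were WRKY15 at 50.3 CPM per kb, WRKY11 at 31.0, WRKY65 at 30.1 and WRKY33 at 26.1 (means of 2 libraries). In libraries labelled cml39 the order of levels was WRKY15 at 81.1, WRKY33 at 79.1, WRKY25 at 53.4, WRKY26 at 50.6 and WRKY18 at 46.6 CPM per kb. WRKY15 and WRKY33 did not differ beyond the spread of their libraries there. WRKY18 moved from place 32 to place 5, and WRKY65 from place 3 to place 18. The 9 untested members lay at the foot of the order, at or below 0.203 CPM per kb in wt.

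Libraries of a pair also differed from each other more among members than among all genes above the same minimum level. Above that minimum the sets were not matched for level, whose part was not tested. Over the 38 members with a mean of at least 5 CPM, the median absolute log2 ratio between cml39 2 and cml39 1 was 0.251, against 0.165 over 14419 tested genes at that level; between the wt libraries it was 0.233 against 0.129. A difference of at least 2-fold between the libraries labelled cml39 was found for 3 of the 38 members (7.89%) and 1.63% of all such genes. Of the 18 members called higher, 6 were at least 1.5 times as high in cml39 2 as in cml39 1, namely WRKY40, WRKY8, WRKY53, WRKY22, WRKY33 and WRKY46. The reverse held for WRKY18 and WRKY47. The seed maturation genes above were also higher in cml39 2, and their part in these differences was not tested.

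**Figure D4:**
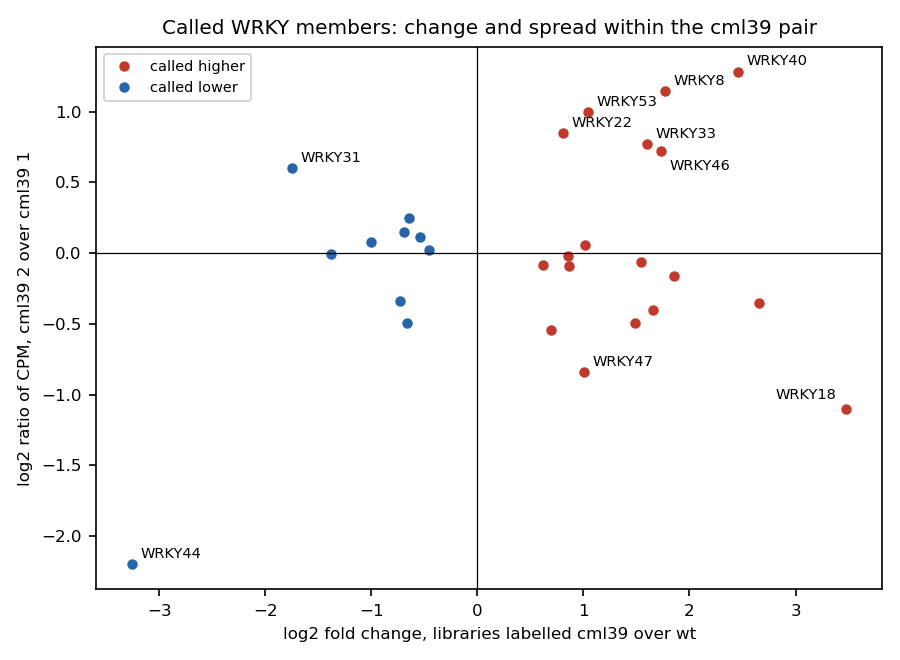
Log2 fold change between groups (x axis) against the log2 ratio of CPM in cml39 2 over cml39 1 (y axis) for called members, without WRKY51 and WRKY54, which had 0 counts in 1 library. WRKY40 and WRKY8 lie at the top and WRKY18 at the lower right, 2.15 times as high in cml39 1 as in cml39 2.

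Several members overlap a gene on the other strand. The kit keeps strand, but whether the counting used it is not given in the sources used here, so reads of such pairs may have been assigned to either gene. An overlap was annotated for 12 members, and none overlapped a gene on its own strand. The largest was that of WRKY41, which shares 491 exon bases with 3xHMG-box1. WRKY41 had 0 and 1 counts in wt and 2 and 1 in cml39, while 3xHMG-box1 had 1024 and 718 in wt and 89 and 87 in cml39. WRKY53 shares 311 exon bases with 3xHMG-box2, a cell-division chromatin protein gene, which had 2614 and 1431 counts in wt and 187 and 137 in cml39, so that WRKY53 was higher while its neighbour was lower. WRKY33 shares 26 exon bases with AT2G38480, which was higher too, with a log2 fold change of 0.86 ± 0.19 (adjusted p = 0.00905). WRKY40 shares 51 exon bases with AT1G80850, at -0.84 ± 0.35 (adjusted p = 0.0899), WRKY4 shares 70 with AT1G13970, which was lower at -1.10 ± 0.29 (adjusted p = 0.0197), and WRKY69 shares 255 with AT3G58720, at 0.096 ± 0.18 (adjusted p = 0.705).

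Most genes of the root list were lower. That list was chosen with earlier results of these data known, so its shares are a description only. Of 20 root genes, all tested, 0 were higher and 16 lower (80%), against 19.3% and 21.6% of all genes tested, with a median log2 fold change of -1.98, and their summed level was 4752 and 4209 CPM in wt and 1103 and 1373 in libraries labelled cml39. Among them were the iron transporter IRT1 (-3.67 ± 0.17, adjusted p = 3.17e-05), the phosphate genes PHO1 (-2.02 ± 0.13, adjusted p = 7.92e-05) and PHT1;1 (-1.70 ± 0.12, adjusted p = 0.000103), and PYK10 (-1.88 ± 0.15, adjusted p = 0.000126). WOX5, which marks the root's quiescent centre, had 15 and 11 counts in wt and 0 in both libraries labelled cml39. The 4 root genes that did not pass were SCR, MYB36, PLT1 and PLT2. SCR had 42.5 and 41.8 CPM in wt and 43.2 and 54.2 in cml39 (0.21, adjusted p = 0.246). MYB36 had 6.75 and 6.74 against 5.58 and 5.91 (-0.23, adjusted p = 0.382), and PLT1 2.18 and 2.15 against 0.302 and 3.01. PLT2 had 0 counts in cml39 1 but 21 in cml39 2. In whole seedlings fewer root cells and less RNA per root cell cannot be told apart, and the part of root genes in the falls of WRKY members was not tested. PHO1, a known target of repression by WRKY6, was lower while WRKY6 was higher. The change of PHO1 (-2.02) lay near the median of the root list (-1.98), and a link to WRKY6 was not tested.

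Other tissue markers were sparse. Of 5 flower genes, PI was higher at 4.57 ± 0.19 (adjusted p = 2.58e-05), with 5.74 and 8.42 CPM in wt and 175 and 160 in cml39, SEP3 was at 0.18 (adjusted p = 0.584), and AP1 had 0 counts throughout. Because of PI the flower sum was 11.7 and 12.7 CPM in wt and 181 and 165 in cml39, while AP3 had 2, 1, 0 and 0 counts and AG had 4, 1, 0 and 1. Of 4 pollen genes, ACA9 was lower at -3.63 ± 0.52 (adjusted p = 0.00146), VGD1 had 0 counts throughout, and the sum was 3.0 and 3.73 CPM in wt and 0.402 and 0.985 in cml39. In the seed maturation list only PAP85 was tested, and it was higher (4.42 ± 0.29, adjusted p = 7.95e-05); CRU3 had 0, 0, 1 and 1080 counts in wt 1, wt 2, cml39 1 and cml39 2. The part of these genes in the WRKY values was not tested.

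Genes that act with WRKY factors were read from the same test. The lists in this and the following paragraphs were chosen with earlier results of these data known, so their shares are a description only. Of 10 genes of the MAP kinase cascade, which phosphorylates WRKY33 and other members, 6 were higher (60%) and 0 lower, against 19.3% and 21.6% of all genes tested, with a median log2 fold change of 0.76 against -0.0052. MKK9, a kinase upstream of MPK3 and MPK6, had 9.15 and 8.27 CPM in wt and 21.4 and 36.3 in cml39 (1.72 ± 0.25, adjusted p = 0.00148). MKK4 (0.85 ± 0.18, adjusted p = 0.00887), MKK5 (0.82 ± 0.16, adjusted p = 0.00526) and MPK3 (0.70 ± 0.14, adjusted p = 0.00583) were higher as well. MKK4 did not pass without wt 1 (0.79).

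VQ proteins bind WRKY domains and change their activity. Of 22 VQ genes, 18 were tested, 8 were higher (44.4%) and 2 lower (11.1%), against 19.3% and 21.6% of all genes tested, with a median of 0.54. CAMBP25, which also binds calmodulin, had 7.99 and 9.66 CPM in wt and 29.9 and 29.1 in cml39 (1.74 ± 0.15, adjusted p = 0.000179). AT2G22880 had the largest rise among them, from 1.13 and 2.30 CPM to 10.9 and 22.6 (3.32 ± 0.44, adjusted p = 0.00102). IKU1, which acts with WRKY10 in the endosperm, was higher by 0.73 ± 0.12 (adjusted p = 0.00257), although WRKY10 itself had 0 counts. JAV1 (AT3G22160), a repressor of jasmonate defence, was higher by 1.11 ± 0.20 (adjusted p = 0.00382). The 2 called lower were AT5G53830 (-1.33 ± 0.29, adjusted p = 0.00864) and AT1G17147 (-0.64 ± 0.20, adjusted p = 0.0391), and 8 did not pass.

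Known targets and defence readouts were read in the same way. Of 4 WRKY33 targets, 3 were tested, 2 were higher (66.7%) and 0 lower, against 19.3% and 21.6% of all genes tested. Among them, the ethylene synthesis genes ACS2 (1.53 ± 0.36, adjusted p = 0.0124) and ACS6 (1.57 ± 0.43, adjusted p = 0.0217) were higher. ACS2 did not pass without wt 1 (1.38) or wt 2 (1.66), nor ACS6 without wt 2 (1.35) or cml39 2 (0.70), with the robust fit or with limma-voom. The camalexin gene PAD3 had 1.09 and 1.29 CPM in wt and 1.01 and 0.985 in cml39 (-0.25 ± 0.41, adjusted p = 0.662), and CYP71A13 was not tested, with 1, 0, 0 and 4 counts. Among 13 salicylic acid genes, 11 were tested, 3 were higher and 3 lower (27.3% each), near the 19.3% and 21.6% of all genes tested, with a median of 0.27. EDS5, the salicylic acid exporter, fell from 3.64 and 3.54 CPM to 0.654 and 1.04 (-2.08 ± 0.36, adjusted p = 0.0033), and PR5 was lower with 54 and 38 counts in wt and 3 and 0 in cml39 (adjusted p = 0.0029). The signalling genes NPR1 (0.65 ± 0.12, adjusted p = 0.00476) and PAD4 (0.80 ± 0.18, adjusted p = 0.00962) were higher, though not without wt 1 (0.54 and 0.70). PR1, the usual marker of this pathway, had 0, 1, 0 and 3 counts in wt 1, wt 2, cml39 1 and cml39 2.

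Early immune and senescence genes were few. Of 6 pattern-triggered genes, 5 were tested, 2 were higher and 0 lower, with a median of 0.27; over all genes tested 19.3% were higher and 21.6% lower. FRK1, a flagellin-induced receptor kinase gene, had 1.24 and 3.78 CPM in wt and 20.4 and 13.2 in cml39 (2.78 ± 0.45, adjusted p = 0.00237). RBOHD, the oxidase of the defence oxidative burst, was higher by 0.71 ± 0.19 (adjusted p = 0.0225) but not without wt 1 (0.77), wt 2 (0.64) or cml39 1 (0.36), nor under upper quartile scaling. YLS9 was at 0.27 (adjusted p = 0.464), PROPEP3 at -0.24 (adjusted p = 0.716) and FLS2 at 0.16 (adjusted p = 0.75). PROPEP2 was not tested, with 7 and 8 counts in wt and 0 in both libraries labelled cml39. Of 5 senescence genes the 3 tested were higher: NAC6 (1.143 ± 0.21, adjusted p = 0.00445), SAG13 (1.09 ± 0.32, adjusted p = 0.0287) and NAP (1.05 ± 0.25, adjusted p = 0.0124). Without wt 1, SAG13 (0.81) and NAP (0.94) did not pass, nor did SAG13 without cml39 2 (0.97). SAG12, the marker of late senescence, had 0 counts in every library. SAG29, also not tested, went the other way, with 17 and 4 counts in wt and 0 and 3 in cml39.

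**Figure D5:**
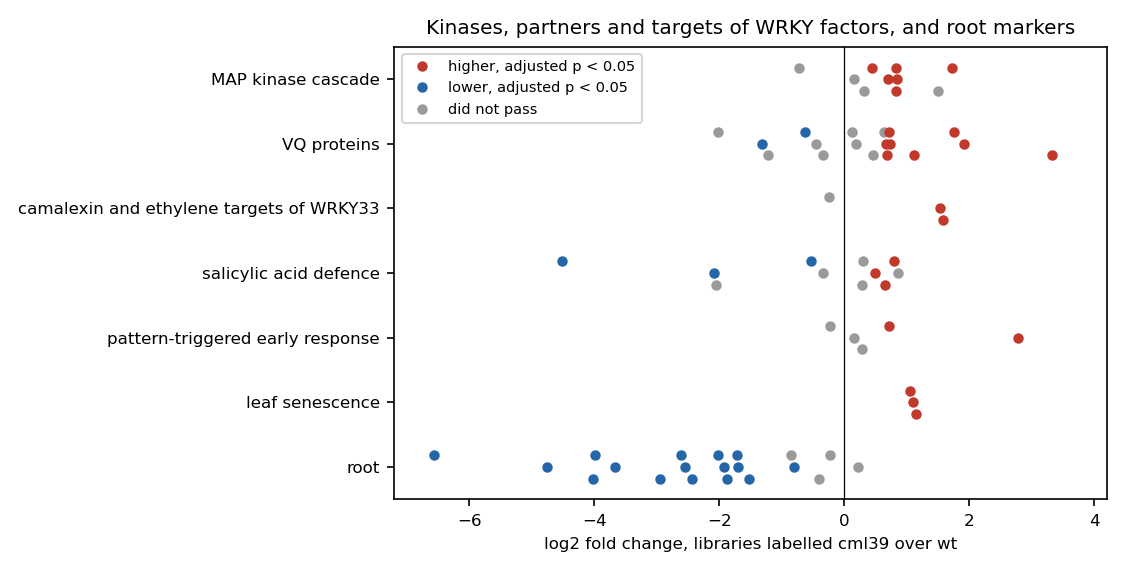
Log2 fold change (x axis) of the tested genes of 7 lists (y axis), 1 point a gene, coloured by call at an adjusted p of 0.05. No MAP kinase cascade gene was called lower, salicylic acid genes were called in both directions, and 16 of 20 root genes were called lower.

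The authors' deposited table gives an adjusted p for 49 members, and by it 11 were higher and 4 lower in cml39 (background 7.23% and 8.76% of 20717 genes). All 15 were called here in the same direction, which is 100% of the authors' list and 50% of the 30 called here. They were the 15 that kept their call in each of the 13 alternatives: WRKY3, WRKY6, WRKY18, WRKY21, WRKY25, WRKY26, WRKY33, WRKY40, WRKY45, WRKY48 and WRKY60 higher, and WRKY31, WRKY44, WRKY54 and WRKY65 lower. The libraries and model of the authors' fit are not given in the sources used here. Its mean normalized count for WRKY46 was 40.3, near the highest of the 19, 7, 27 and 41 counts here. For WRKY1 that mean was 702, beside 889, 618, 624 and 649 counts, so these 4 libraries alone seem not to be its source. The fit may still include them, so this overlap is a description only.

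W-box shares were also counted by call. A box lay in the window of 8 of the 18 members called higher (44.4%), 4 of the 12 called lower (33.3%), 6 of the 19 that did not pass (31.6%) and 6 of the 9 not tested (66.7%). The core TTGAC was found in 13 members called higher (72.2%), 7 called lower (58.3%), 8 that did not pass (42.1%) and 7 not tested (77.8%). Its share was 60.3% over the family and 50.4% over all protein-coding genes. CGCG, an element bound by calmodulin-binding transcription activators, lay in 6 windows of the family (10.3%), against 11.8%. W-box matches are a subset of core matches. These counts describe letters in a window and carry no test.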

How the data were processed

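The authors deposited raw read counts per gene for the 4 libraries. The submitters' processing notes name CASAVA 1.8, FastQC, STAR 2.5.2b, DESeq2 1.14.1 and build TAIR10 without roles; the strand setting of the counting is not given in the sources used here. The authors' deposited DESeq2 table gives, per its header, a mean normalized count (signal), log2 fold changes, a Wald score and p-values.

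From these counts, edgeR 4.0.16 in R 4.3.3 was run (filterByExpr, TMM factors of 1.11, 1.08, 0.905 and 0.923 for wt 1, wt 2, cml39 1 and cml39 2, quasi-likelihood F test, two-sided), and p-values were adjusted by Benjamini-Hochberg over 19834 genes. The biological coefficient of variation was 0.129. The SE of a log2 fold change is its size divided by the root of its F statistic. Simulated data of 19510 genes took the means, library sizes and dispersions of these libraries. There, 66 of 100 changes of log2 1 and 95 of 100 of log2 2 were recovered, with 11 false calls. Only those genes were changed, equally up and down, whereas 40.9% of genes were called here, so recovery and false calls may differ in the real data. Also tried were upper quartile scaling, size factors from DESeq2, 2 other filters, a robust fit, replicate blocks, DESeq2 1.42.0, limma-voom 3.58.1 and each library left out.

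Members, subgroups and lists were chosen with earlier results of these data known. All 58 members could be named, and in each list up to 4 genes by lowest p, with PR1 and CML39. Further list genes, named at low counts, as called lower or as genes that did not pass, were chosen after their values were seen. Gene positions, exon lengths and sequences come from TAIR10.1 in RefSeq, which holds 32548 identifiers of the count table and not 285. Without molecular identifiers, intervals and the floor of 3 counts speak to counting error only. CPM are counts scaled to the effective library size.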

Additional observations from a re-analysis of the deposited data

How the results depend on the processing

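The count of members called stayed between 15 and 19 higher and between 9 and 13 lower under the alternatives that kept all 4 libraries. Leaving out 1 library gave 11 to 18 higher and 4 to 10 lower, with 11 higher and 4 lower without wt 1, and 14 higher and 6 lower without wt 2. Over all genes, leave-one-out counts ran from 1997 to 3943 higher and from 2180 to 4421 lower, the lowest of both without wt 1. Upper quartile scaling moved the median of all genes by -0.148 on the log2 scale and gave 15 members higher and 13 lower (2704 and 5403 genes); WRKY15, WRKY22 and WRKY53 lost their calls there and WRKY61 gained one. Deviations of same-numbered libraries from their group means were weakly correlated (-0.118). The labels do not say whether the numbers pair the samples, and so few libraries cannot settle it. The replicate block gave 17 and 10 members (3142 and 3602 genes), without WRKY9, WRKY32 and WRKY46. The crossed pairing, added after seeing the data, gave 19 and 11, without WRKY51 and with WRKY70. DESeq2 gave 17 and 9. In all, 15 of the 30 called members kept their call in each of the 13 alternatives, 11 higher and 4 lower.

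Values near 0 changed sign. Under upper quartile scaling WRKY1 was -0.060, WRKY2 -0.14 and WRKY27 -0.047. WRKY2 was -0.0036 with at least 1 CPM in 2 libraries, -0.021 with the replicate block, -0.026 with the crossed block and -0.0081 with limma-voom. With 1 library left out, log2 fold changes ran from -0.0063 to 0.18 for WRKY1, -0.40 to 0.32 for WRKY2, -0.15 to 0.10 for WRKY7, -0.92 to 0.27 for WRKY13, -0.13 to 0.41 for WRKY49, -0.086 to 0.52 for WRKY57, -0.22 to 0.23 for WRKY75, -0.0075 to 0.51 for YLS9, -0.60 to 0.064 for PROPEP3 and -0.035 to 0.43 for SEP3. None of these passed the threshold in those settings, and the cause of these changes was not tested.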
